A study of Danio rerio with 54 samples.

Results

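The genes described here encode complement, coagulation, iron and heme binding, protease inhibitor and carrier proteins of blood plasma. They were taken as the rows of the expression table that carry 1 of 43 symbols on a list, with the ID of highest mean expression where a symbol had several IDs. The table held 41 of the 43 symbols among 30097 genes. The symbols cfi and hpx had no row of that spelling and are not analysed here. A row spelled hpx a was in the table and was left out of the 41. All 41 passed the filter on low values and were among the 25387 genes tested. The row listed as hp carries another name, msmbl, in the gene name table used, so its identity as haptoglobin is uncertain. Of the 41 IDs, 38 were in that table and 26 had the same symbol there. Other genes too are therefore named here by the symbol of the expression table alone.

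RNA was measured in whole larvae of the zebrafish AB strain, 54 samples in 18 groups with 3 samples a group. Controls (ctrl) stayed at 28 °C and were collected at 96, 97, 98, 102, 108 and 132 h post fertilization (hpf). Cold groups (lc) went from 28 to 10 °C at 96 hpf and stayed there for 1, 2, 6, 12 or 24 h. Recovery groups (re) spent 12 h at 10 °C and then 1, 2, 6, 12 or 24 h at 28 °C. Per the study's methods the medium took about 1 h to warm from 10 to 28 °C, so re_1 h covers the warming itself. Survivors of 24 h at 10 °C followed by 24 h at 28 °C were separated by morphology and ability to swim into normal (er_nor) and abnormal (er_ab) larvae. Dead larvae were removed before collection, so each cold, recovery and survivor group holds only larvae scored as alive. The lc_24 h larvae, at 120 hpf, and the survivors, 24 h older, have no untreated group of their age. Each sample is a whole body, and the sources used here do not say whether samples of a group were separate clutches, so p-values measure only the spread between these samples.

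In vertebrates most of these proteins are made by hepatocytes and secreted into plasma. Complement is a cascade in which C3 is cleaved after activation by antibody, lectins or the alternative pathway, and C5 to C9 then assemble a pore in the target membrane. During inflammation, cytokines that signal through STAT3 and C/EBP factors raise the transcription of the positive acute phase proteins, among them fibrinogen, serum amyloid A and hepcidin in mammals, while negative ones such as transthyretin fall.

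Expression is given as TPM, the usual unit of transcript abundance, a measure per transcript length that is also a share of each library, so levels can be compared between genes. Differences are log2 fold changes of TPM + 1 from limma, with the standard error (SE), and p-values were adjusted by Benjamini-Hochberg over the 25387 genes. A gene was called when it differed by 1.5-fold or more at an adjusted p of 0.05 or less. Under another scaling of the libraries, by medians of ratios, the median of all genes moved from -0.23 to -0.03 for lc_24 h against ctrl_96 hpf, from 0.18 to 0.03 at re_6 h and from 0.19 to 0.04 at re_12 h against lc_12 h, and from 0.24 to 0.05 and from 0.21 to 0.04 for er_nor and er_ab against lc_24 h. For lc_12 h it moved from -0.13 to -0.02 against ctrl_96 hpf and from -0.16 to -0.02 against ctrl_108 hpf, and for ctrl_132 hpf from -0.09 to 0.02. Medians of the 41 genes are therefore set beside those of all genes. Depth in reads is unknown from a TPM table.

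The hepatocyte markers fabp10a, at 322 TPM on average in ctrl_96 hpf, and apoa2, at 6439 TPM, were present, and muscle (actc1b), neuron (elavl3), epidermis (krt4), pancreas (prss59.1) and intestine (fabp2) markers stood beside them. The fetuin genes ahsg1 (0.845 TPM) and ahsg2 (0.103 TPM) were near 0 at 96 hpf. In whole larvae, fewer cells of a type and less RNA per cell cannot be told apart. The 41 genes ranged widely in level at the start. In ctrl_96 hpf transferrin a (tfa), the iron carrier, had 966 ± 22.7 TPM (SD, n = 3), and the alpha-1-antitrypsin genes serpina1 and serpina1l had 309 and 294 TPM. At the other end c4 had 1.90 TPM, c7b 1.52 TPM and saa 2.18 TPM. In the RefSeq gene order of assembly GRCz12tu, where 38 of the 43 symbols matched, c3a.2 lay next to c3a.3, c8a next to c8b, c3b.2 next to c3b.1 and serpina1l next to serpina1, and 1 other protein-coding gene lay between fgb and fga.

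**Figure D1:**
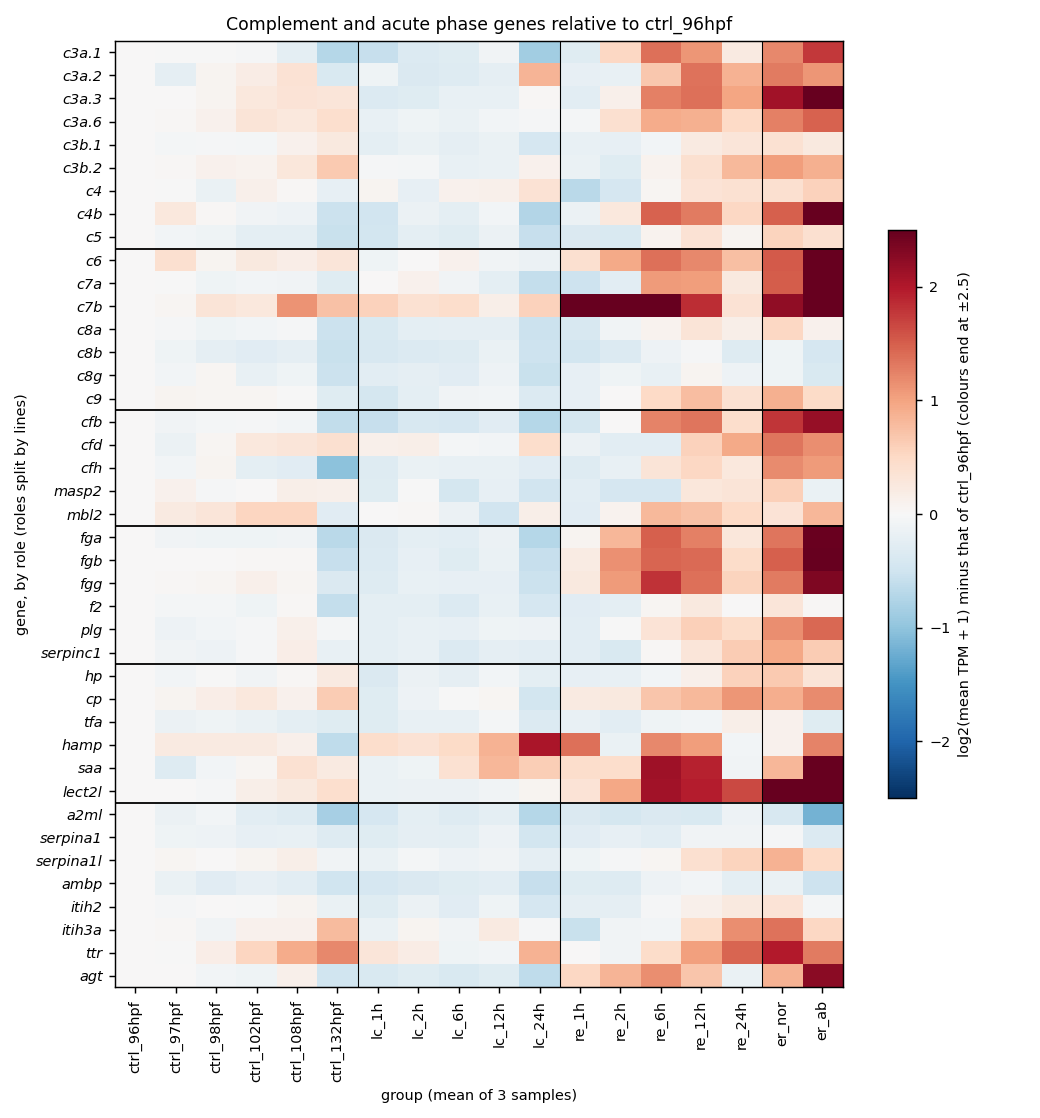
Heat map of 41 genes (rows, grouped by role) in 18 groups (columns, means of 3 samples). Colour is log2(mean TPM + 1) minus that of ctrl_96 hpf. Blue is weak in the cold columns, where hamp is the deepest red at lc_24 h. Red spreads over many complement rows and the fibrinogen and lect2l rows from re_2 h onward, and many of these rows are deepest in er_ab. The colour scale is capped, and c7b is already at the cap at re_1 h and re_2 h.

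Before 108 hpf few genes were called for age alone, among the 41 or among all genes. Against ctrl_96 hpf, 0 of 41 were called in limma at ctrl_97 hpf, ctrl_98 hpf or ctrl_102 hpf, where 0.24%, 0.205% and 1.37% of all genes were called in either direction. At an unadjusted p under 0.05 the counts of the 41 were 1 higher and 0 lower, 1 higher and 2 lower, and 4 higher and 6 lower. Those of all 25387 genes were 1462 higher and 1343 lower, 1607 and 2056, and 2078 and 3171. At ctrl_108 hpf ttr alone was higher and 0 were lower, beside 1.87% of all genes higher and 0.626% lower. In limma 7 of the 41 and 2053 of all genes were lower there at an unadjusted p under 0.05. At ctrl_132 hpf 4 were higher and 7 lower, against 4.13% and 8.28% of all genes.

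The gene ttr encodes transthyretin, a carrier of thyroid hormone. Its TPM were 19.6, 26.0 and 23.6 at ctrl_96 hpf, 39.8, 48.6 and 45.7 at ctrl_108 hpf, and 57.0, 53.0 and 53.2 at ctrl_132 hpf. The 3 ages did not overlap, and the last exceeded the first by 1.21 on the log2 scale (SE 0.12, adjusted p = 9.5e-11). The other genes that rose by ctrl_132 hpf were c3b.2, a C3 gene (0.66), cp, the copper-binding ceruloplasmin (0.63), and itih3a, an inter-alpha-trypsin inhibitor heavy chain (0.79). Complement factor H (cfh), an inhibitor of the alternative pathway, fell from 24.8, 24.3 and 23.0 TPM to 13.1, 9.95 and 10.7 TPM, a log2 change of -1.04 (SE 0.14, adjusted p = 5.1e-08). The protease inhibitor a2ml fell by 0.82 on the log2 scale, c3a.1 by 0.71, fga by 0.67, hamp by 0.64, cfb by 0.60 and prothrombin (f2) by 0.59. Under median-of-ratios scaling the 4 higher were still 4, but the 7 lower became 3. Without ctrl_132 hpf replicate 1 the 4 higher became 2.

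In the first hours at 10 °C most of these genes had small negative estimates that did not reach the call. Against ctrl_96 hpf, 0 were called in limma at lc_1 h, lc_2 h and lc_6 h, beside 0.284%, 0.748% and 4.83% of all genes called in either direction. The estimates were below 0 in 34, 33 and 36 of 41 and above 0 in 7, 8 and 5. Of all 25387 genes 11847, 12900 and 9139 had estimates above 0. In limma 25, 15 and 21 of the 41 were lower at an unadjusted p under 0.05, against 2, 0 and 1 higher. Of all genes 1522, 1202 and 5729 were lower and 1086, 1426 and 2210 higher at that p. The median of the 41 was -0.29 at lc_1 h, -0.18 at lc_2 h and -0.21 at lc_6 h, beside -0.01, 0.00 and -0.07 for all genes. These comparisons share the ctrl_96 hpf samples, and the genes moved together by sample, so their estimates are not independent. Replicate 2 of ctrl_96 hpf held the highest value of its group in 31 of 41 genes. Replicate 3 of lc_1 h was highest in 26, and replicate 3 was lowest in 27 at lc_2 h and in 31 at lc_6 h.

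Against controls of the same age 1 gene was called at lc_1 h, the C4 gene c4b, which was lower by 0.75 on the log2 scale (SE 0.18, adjusted p = 0.013), with 0.571% of all genes called. That call was lost without ctrl_97 hpf replicate 3 or without lc_1 h replicate 2, and without lc_1 h replicate 3 there were 2 lower calls. At lc_2 h 0 were called beside 1.14% of all genes. In limma at an unadjusted p under 0.05, 0 of these genes were higher and 9 lower there. Of all genes tested 2539 were higher and 1854 lower at that p. At lc_6 h, with 7% of all genes called, mbl2, the mannose-binding lectin that starts the lectin pathway, and ttr were lower. Both were also the 2 lower genes at lc_12 h against ctrl_108 hpf, where 14.1% of all genes were lower. The mbl2 values were 16.1, 14.2 and 17.3 TPM at lc_12 h and 33.6, 31.6 and 34.0 TPM at ctrl_108 hpf, without overlap (log2 fold change -1.01, SE 0.12, adjusted p = 1.3e-09). Those of ttr were 19.4, 20.7 and 25.5 TPM at lc_12 h, again without overlap with ctrl_108 hpf (log2 fold change -1.0, SE 0.12, adjusted p = 8.1e-09). At lc_12 h ttr stood near its level of ctrl_96 hpf, the group in which cooling began. Without ctrl_108 hpf replicate 3, lc_12 h replicate 1 or lc_12 h replicate 3 the 2 lower genes became 4.

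Hepcidin (hamp), the peptide hormone that blocks iron export through ferroportin, rose in the cold. Its TPM were 19.4, 23.8 and 18.7 at ctrl_96 hpf, 29.2, 27.5 and 30.2 at lc_6 h, 36.0, 35.3 and 44.1 at lc_12 h, and 111, 77.4 and 77.0 at lc_24 h. None of the 4 groups overlapped with the next. It was the single gene of the 41 higher at lc_12 h, against ctrl_96 hpf (0.87, SE 0.21, adjusted p = 0.00073) with 5.56% of all genes higher, and against ctrl_108 hpf (0.74, SE 0.21, adjusted p = 0.0031) with 5.77% higher. Against ctrl_96 hpf 0 of the 41 were lower at lc_12 h in limma beside 9.54% of all genes. At an unadjusted p under 0.05, 8 of the 41 and 8912 of all 25387 genes were lower. At lc_24 h hamp had the largest change of the 41, 2.04 (SE 0.21, adjusted p = 4.7e-11). The gene id1, a target of BMP signaling, the pathway that also raises hepcidin in mammals, had 318 TPM on average at ctrl_96 hpf, 1033 at lc_6 h, 1036 at lc_12 h and 773 at lc_24 h. Values of other BMP pathway genes are not given here, and the part of BMP signaling in the rise of hamp was not tested.

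At lc_24 h 3 genes were higher and 8 lower than at ctrl_96 hpf, against 9.3% and 24.3% of all genes. The share of the 41 that was lower, 19.5%, was not above that of all genes. Under median-of-ratios scaling the split was 4 higher and 1 lower, and the 1 was c3a.1. Besides hamp, c3a.2, a second C3 gene, rose from 12.2, 17.2 and 15.4 TPM to 31.1, 28.2 and 23.9 TPM without overlap (0.85, SE 0.16, adjusted p = 1.1e-05), and ttr rose by 0.86. Another C3 gene, c3a.1, went the other way, from 70.2, 82.1 and 63.9 TPM to 40.7, 43.9 and 32.9 TPM (-0.87, SE 0.14, adjusted p = 1.6e-06). The other lower genes were c4b, c7a, cfb, the fibrinogen alpha and beta chains fga and fgb, a2ml and the angiotensin precursor agt, with log2 fold changes from -0.73 to -0.59. The lc_24 h larvae were older than ctrl_96 hpf and have no untreated group of their age. Cold and age cannot be told apart in this comparison. In untreated larvae ttr was also higher by ctrl_132 hpf, and c3a.1, fga, cfb and a2ml were also lower. There c4b, c7a, fgb and agt were not called lower, c3a.2 was not called higher, and hamp was lower.

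Sample lc_24 h replicate 3 held the lowest value of its group in 34 of 41 genes. The summed TPM of the 28 liver cell genes in the table was 8400, 9294 and 6917 in lc_24 h replicates 1, 2 and 3, against 11072 to 11688 at ctrl_96 hpf. By its mean given above, apoa2 alone made up most of that sum at ctrl_96 hpf. The sum therefore does not show how the other listed genes moved. A list of 13 yolk syncytial layer and intestine genes summed to 7672, 8945 and 6673 TPM in the same lc_24 h samples, against 8183 to 9065 at ctrl_96 hpf. Without lc_24 h replicate 3 the lower count of the 41 was 6, and without replicate 2 it was 14. Of 28 liver cell genes tested 5 were higher and 8 lower at lc_24 h. Their median was 0.03, with 16 of the 28 estimates above 0, beside a median of -0.23 for all genes. Of 15 liver transcription factors 1 was higher and 8 lower, led by hnf1ba (-1.29), foxa2 (-1.60) and foxa1 (-1.18). The part of the liver cell share in the lower calls was not tested.

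After 12 h of cold and a return to 28 °C, a growing number of these genes stood higher up to 12 h. Against lc_12 h the number of the 41 that were higher went from 2 at re_1 h to 8 at re_2 h, 16 at re_6 h, 21 at re_12 h and 17 at re_24 h. All genes higher made up 12.3%, 14.1%, 16.6%, 15.8% and 13%. The lower counts were 2, 1, 0, 0 and 1, beside 4.55%, 6.55%, 5.24%, 5.5% and 7.15% of all genes. At re_6 h and re_12 h 1 and 0 were lower in limma at an unadjusted p under 0.05, beside 3923 and 3725 of all genes. The medians of the 41 were -0.09, 0.01, 0.46, 0.64 and 0.49, and those of all genes 0.04, 0.08, 0.18, 0.19 and 0.10. Under median-of-ratios scaling 15 were higher at re_6 h, 17 at re_12 h and 13 at re_24 h. These 5 comparisons share the lc_12 h samples, and the recovery groups were 1 to 24 h older than lc_12 h, so rewarming and age cannot be told apart in them. Liver and immune cell genes moved beside the 41. Of 28 liver cell genes 3, 5, 7, 10 and 16 were higher over the 5 times, with medians of -0.06, -0.05, 0.21, 0.43 and 0.78, and their summed TPM went from 10034 to 10582 at lc_12 h to 12093 to 13231 at re_24 h. At re_24 h both their median and their share of higher genes were above those of the 41. Of 18 macrophage and neutrophil genes 2, 4, 7, 9 and 12 were higher, with a summed TPM of 187 to 230 at lc_12 h and 350 to 416 at re_24 h. The part of these cells in the result was not tested.

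**Figure D2:**
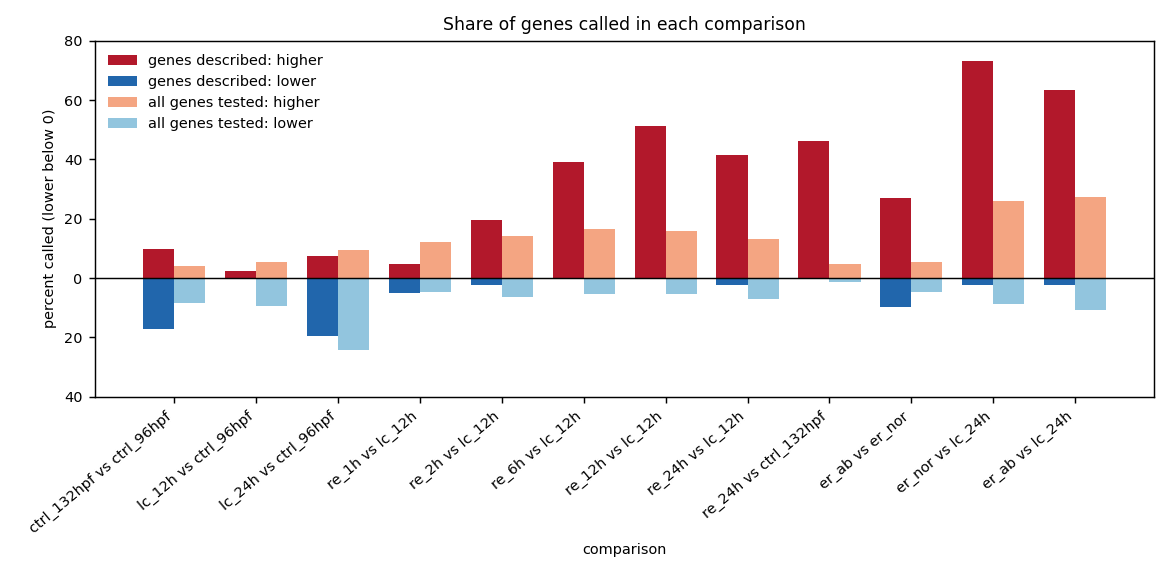
Percent of the 41 genes (dark bars) and of all 25387 genes tested (pale bars) called higher (above 0) or lower (below 0) in 12 comparisons. The dark upper bar is below the pale one at re_1 h (4.88% against 12.3%) and above it from re_2 h onward, reaching 51.2% against 15.8% at re_12 h and 73.2% against 25.9% for er_nor against lc_24 h.

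The first genes to rise were c7b, a gene for C7 of the membrane attack pore, and agt. The c7b values were 1.5, 1.49 and 2.43 TPM at lc_12 h, 16.5, 12.2 and 17.4 TPM at re_1 h and 23.4, 38.5 and 34.0 TPM at re_2 h. The 3 groups did not overlap, and the log2 fold change was 2.55 (SE 0.44, adjusted p = 7.4e-06) at 1 h and 3.54 (SE 0.44, adjusted p = 9.7e-09) at 2 h. By re_24 h, with 3.24, 3.25 and 0.237 TPM, the gene overlapped with lc_12 h again. For agt the TPM were 43.6, 37.7 and 41.3 at lc_12 h, 77.1, 72.6 and 68.2 at re_1 h and 96.8, 112 and 131 at re_6 h, a log2 fold change of 0.81 (SE 0.12, adjusted p = 2.9e-07) at 1 h and 1.44 (SE 0.12, adjusted p = 2.8e-13) at 6 h. At re_24 h its mean was 44.9 TPM, and the gene was no longer called. The 2 lower genes at re_1 h were c4, a C4 gene at low level whose call was lost without lc_12 h replicate 1 or 3 or re_1 h replicate 2, and itih3a (-0.81). Without re_1 h replicate 2 the higher genes at re_1 h were 4.

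At re_2 h the 3 fibrinogen chains, c6, c3a.1 and lect2l joined. The call of c3a.1 (0.61) was lost under median-of-ratios scaling (0.49) and without lc_12 h replicate 2 (0.52), lc_12 h replicate 3 (0.57) or re_2 h replicate 3 (0.54). Fibrinogen is the soluble precursor of the fibrin clot, made of alpha, beta and gamma chains. The TPM of fgb were 100.9, 90.8 and 88.8 at lc_12 h, 220, 252 and 226 at re_2 h, 267, 272 and 329 at re_6 h and 142, 161 and 133 at re_24 h. All rewarmed samples from 2 h on exceeded all those at lc_12 h, and the log2 fold change at 2 h was 1.31 (SE 0.12, adjusted p = 3e-12). The gamma chain fgg rose from 66.3, 57.7 and 61.7 TPM before rewarming to 233, 224 and 299 TPM after 6 h (2.00, SE 0.13, adjusted p = 6.3e-16), and fga by 1.63 at the same time. Of the other coagulation genes, prothrombin was not called at any of the 5 times, plasminogen (plg), the precursor of the clot-dissolving protease, was first called at 12 h (0.71, and 0.53 without a call under median-of-ratios scaling), and antithrombin (serpinc1), the inhibitor of thrombin, at 24 h (0.85).

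The gene lect2l encodes a relative of leukocyte cell-derived chemotaxin 2, a protein secreted by the liver in mammals. Which cells of the larva expressed lect2l was not tested. Its TPM were 26.4, 22.5 and 20.7 at lc_12 h, 42.4, 50.8 and 55.1 at re_2 h, 89.2, 136 and 103 at re_6 h, and 86.0, 90.3 and 63.9 at re_24 h. The groups after 2 h lay apart from lc_12 h throughout, with a log2 fold change of 2.17 (SE 0.19, adjusted p = 1.4e-12) at 6 h and 1.74 (SE 0.19, adjusted p = 4.4e-10) at 24 h.

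Of the 21 complement genes 10 were higher at 6 h, and 7 of these were called for the first time (c3a.2, c3a.3, c3a.6, c4b, c7a, cfb and mbl2). For c3a.1 the TPM were 79.8, 59.3 and 64.3 at lc_12 h and 174, 191 and 204 at re_6 h, which lay wholly above (1.48, SE 0.14, adjusted p = 2.1e-11). The other c3a genes rose by 0.92 (c3a.2), 1.48 (c3a.3) and 1.00 (c3a.6) at 6 h. The c3b pair differed from them: c3b.1 was called at none of the 5 times, and c3b.2 only at 24 h (0.99). The C4 gene c4b rose from 9.58, 6.73 and 7.77 TPM in cold larvae to 21.3, 23.1 and 30.8 TPM, without overlap (1.52, SE 0.18, adjusted p = 1.8e-09), and C5 (c5) was not called at any time against lc_12 h.

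Within the membrane attack genes c6, c7a and c7b rose and the C8 genes were not called. At re_6 h c6 was higher by 1.45, c7a by 1.30 and c7b by 2.80, while c8a, c8b and c8g were called at none of the 5 times and c9 was first called at 12 h (0.85). The C8 genes held 10.9 to 19.0 TPM on average at re_6 h and 11.5 to 16.5 TPM at lc_12 h. Of the activating and regulating genes, factor B (cfb), the protease subunit of the alternative pathway convertase, rose from 21.5, 16.2 and 18.3 TPM to 50.01, 50.02 and 64.7 TPM at re_6 h, without overlap (1.51, SE 0.14, adjusted p = 7.8e-12). The lectin mbl2 rose from 16.1, 14.2 and 17.3 TPM to 37.5, 37.7 and 46.9 TPM, also without overlap (1.30, SE 0.12, adjusted p = 2.4e-12). Factor D (cfd), which cleaves factor B, was first called at 12 h (0.64), as was cfh (0.72), and masp2, the lectin pathway protease, at none of the 5 times. Under median-of-ratios scaling the 12 h calls of cfd (0.46) and cfh (0.54) were lost, and that of cfd also without lc_12 h replicate 1 (0.56).

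**Figure D3:**
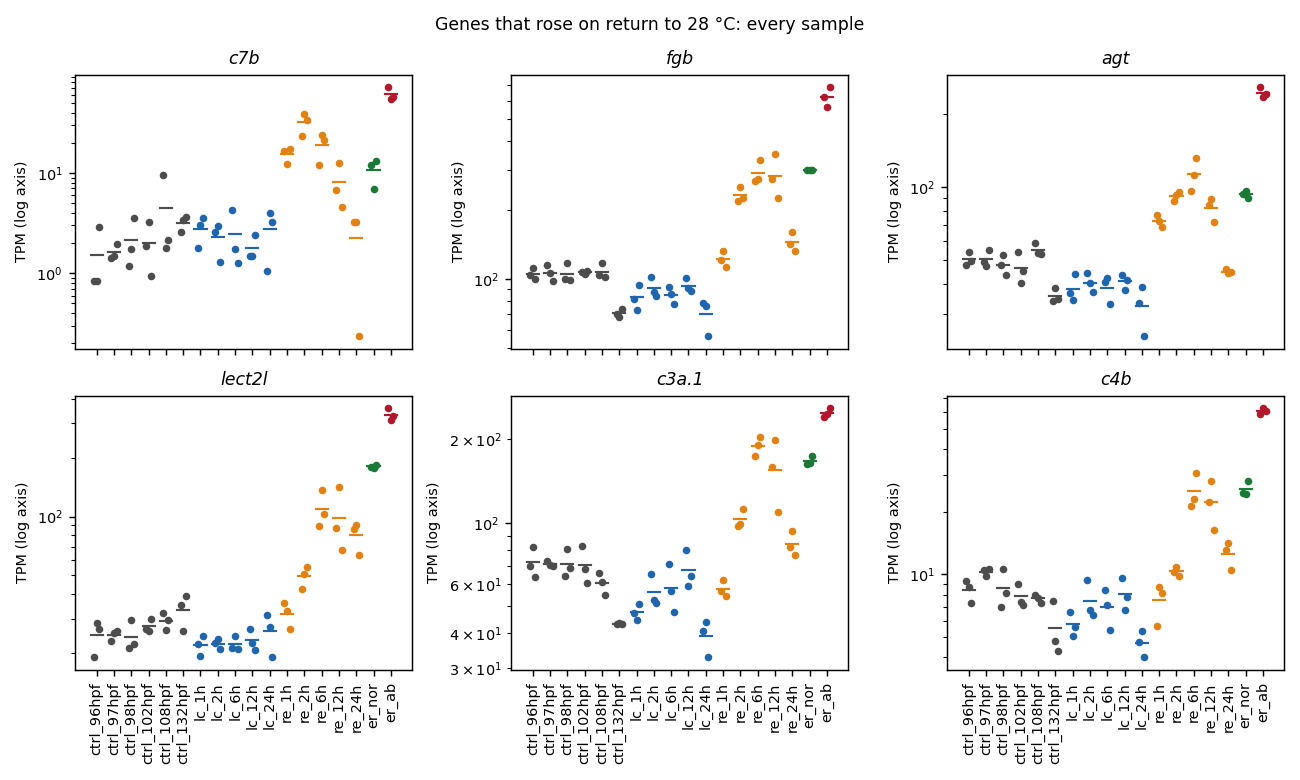
TPM (log axis) of c7b, fgb, agt, lect2l, c3a.1 and c4b in each of the 54 samples (points, colour by kind of group) with group means (lines). The c7b panel jumps at re_1 h (12.2 to 17.4 TPM against 1.49 to 2.43 TPM at lc_12 h) and has returned by re_24 h, lect2l is still raised at re_24 h (63.9 to 90.3 TPM), and all 6 panels have their highest mean in er_ab.

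Hepcidin moved in steps of its own after the cold. Its TPM were 66.7, 42.9 and 56.0 at re_1 h, 18.2, 18.3 and 18.3 at re_2 h, 44.1, 42.6 and 59.15 at re_6 h and 19.6, 20.3 and 19.2 at re_24 h. Against lc_12 h (36.0, 35.3 and 44.1 TPM) it was not called at 1 h, lower at 2 h (-1.03, SE 0.21, adjusted p = 7e-05), not called at 6 and 12 h, and lower again at 24 h (-0.92, SE 0.21, adjusted p = 0.0003), the single lower gene at both times. The samples at 2 and 24 h lay wholly below those at lc_12 h. The BMP target id1 had 1036 TPM at lc_12 h, 160 TPM at re_1 h, 284 TPM at re_2 h and 317 TPM at re_6 h, and hamp at 6 h stood above its values at 2 h in every sample. A link between id1 and hamp was not tested.

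Serum amyloid A (saa), a lipid-binding acute phase protein, was not called at any time against lc_12 h, and its samples did not move together. Its TPM were 5.26, 3.81 and 4.98 at lc_12 h, 5.32, 29.3 and 3.65 at re_6 h, and 4.27, 26.2 and 2.60 at re_12 h. In each of the 2 recovery groups replicate 2 stood far above the others. Sample re_12 h replicate 2 was also the highest of its group in 26 of 41 genes and replicate 3 the lowest in 29, as in fgb (273, 349 and 225 TPM in replicates 1 to 3), hamp (31.6, 64.0 and 35.7 TPM) and c4b (22.2, 28.1 and 16.4 TPM). Of the 28 liver cell genes the summed TPM were 11965, 11450 and 11834 in the same samples, and of 18 macrophage and neutrophil genes 259, 354 and 272.

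Except for cp and itih3a, the remaining genes moved late or not at all on rewarming. As given above, itih3a was lower at re_1 h, before it was higher at re_24 h. The gene cp was called higher at re_6 h (0.67) and re_12 h (0.76) against lc_12 h. Both calls were lost under median-of-ratios scaling (0.50 and 0.58), and that at re_6 h also without lc_12 h replicate 2 (0.52). At re_24 h hp was higher by 0.64, serpina1l by 0.65, itih3a by 0.93, ttr by 1.54 and cp by 1.07 against lc_12 h. The calls of hp and serpina1l were lost under median-of-ratios scaling (0.57 and 0.58) and without lc_12 h replicate 2 (0.58 and 0.56), and that of hp also with TPM summed over IDs (0.58) and without re_24 h replicate 2 (0.58). The genes ttr, cp, itih3a and c3b.2, higher at re_24 h, were also the 4 that rose in untreated larvae from 96 to 132 hpf. The genes tfa, serpina1, ambp, the precursor of alpha-1-microglobulin and bikunin, and itih2, another inter-alpha-trypsin inhibitor heavy chain, were called at none of the 5 times, and a2ml was not either. Group means of tfa lay between 808 and 1072 TPM over the 5 recovery groups, against 931 TPM at lc_12 h.

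Genes of a list of acute phase signaling differed both in the cold and after it. The list also names crp, crp2, crp3, id1 and tfr1a, so not all of its genes act upstream of these proteins. Of 26 acute phase signaling genes tested 8 were higher and 1 lower at lc_12 h against ctrl_96 hpf, and 10 higher and 3 lower at lc_24 h. The summed TPM of the 29 listed genes, id1 among them, was 633 to 675 at ctrl_96 hpf, 1464 to 1600 at lc_12 h and 1175 to 1210 at re_1 h. By its means given above, id1 alone made up most of the sum at lc_12 h. At re_1 h id1 was below its ctrl_96 hpf mean and a small part of the sum. The sum therefore does not show how the other listed genes moved. Against lc_12 h 11 were higher and 4 lower at re_1 h, 11 higher and 6 lower at re_2 h, 11 and 5 at re_6 h, and 5 and 7 at re_12 h. The transcription factor stat3 had 5.11, 5.42 and 6.12 TPM at lc_12 h, 25.6, 26.9 and 26.8 TPM at re_1 h and 49.4, 39.7 and 54.4 TPM at re_2 h, without overlap. Its feedback inhibitor socs3b had 12.2 TPM on average at lc_12 h, 78.0 at re_1 h and 118 at re_2 h, and cebpd had 79.6, 391 and 279 TPM. At 1 h the log2 fold changes were 2.07 for stat3, 2.58 for socs3b and 2.29 for cebpd. Of 15 liver transcription factors 7 were higher and 2 lower at re_1 h, with cebpa at 54.3 TPM against 14.9 TPM and hnf4a at 15.1 TPM against 5.17 TPM.

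At 132 hpf, after 24 h at 28 °C, the recovered larvae could be compared with untreated larvae of their age, and 19 of the 41 were higher and 0 lower, beside 4.75% and 1.34% of all genes. In limma at an unadjusted p under 0.05 the counts were 33 and 0, and those of all genes 5958 and 2542. Under median-of-ratios scaling 15 and 0 of the 41 were called. The median of the 41 was 0.54 and that of all genes 0.05. By role, 5 of 9 genes for C3, C4 and C5 were higher, 2 of 7 for the membrane attack pore, 3 of 5 for activation and regulation, 5 of 6 for coagulation, 2 of 6 for acute phase, iron and heme, and 2 of 8 for protease inhibitors and carriers.

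The largest difference was in cfh, with 29.2, 30.1 and 27.7 TPM at re_24 h and 13.1, 9.95 and 10.7 TPM at ctrl_132 hpf (1.30, SE 0.14, adjusted p = 7.1e-10). The C3 gene c3a.2 had 29.9, 28.0 and 26.0 TPM against 12.4, 12.2 and 8.98 TPM (1.26, SE 0.16, adjusted p = 3.5e-08), and lect2l had 86.0, 90.3 and 63.9 TPM against 35.0, 25.8 and 39.0 TPM (1.25, SE 0.19, adjusted p = 1.6e-06). The groups did not overlap in any of the 3 genes. For cfh and fga the mean level at re_24 h (29.0 and 113 TPM) was also near that at ctrl_96 hpf (24.0 and 93.4 TPM). Both had fallen in untreated larvae between 96 and 132 hpf. The genes cfb, f2 and hamp, also called higher here, had fallen over those ages (log2 fold changes -0.60, -0.59 and -0.64). Under median-of-ratios scaling these falls were not called (-0.48, -0.47 and -0.52), nor was that of fga (-0.55). Those of cfb, f2 and hamp were also lost without ctrl_96 hpf replicate 2. Here f2 was higher by 0.60. That call was lost under median-of-ratios scaling (0.54) and without ctrl_132 hpf replicate 2, re_24 h replicate 1 or re_24 h replicate 2. The genes c3a.2, lect2l, fgb, fgg, c4b and serpinc1 were not called lower over those ages. Per the paper, the expression profile of re_24 h lay between those of ctrl_132 hpf and ctrl_108 hpf. The paper took the remaining effects to be mainly slowed development. The part of delayed development in these calls was not tested. The fibrinogen genes were higher by 0.94 (fga), 1.02 (fgb) and 0.91 (fgg), c4b by 1.08, cfb by 1.06 and serpinc1 by 0.83. The early genes c7b (2.24 against 3.2 TPM) and agt (44.9 against 35.6 TPM) were not called. The call of hamp (0.59, adjusted p = 0.034) was lost under scaling and in 5 of the 6 fits that left out a sample.

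Other lists moved beside these genes at that age. The pentraxin gene crp3 of the acute phase signaling list had 82.0, 65.5 and 88.3 TPM at re_24 h against 20.9, 22.3 and 30.8 TPM at ctrl_132 hpf (1.64), and crp2 was higher by 1.07. Of 23 genes of the secretory pathway of the endoplasmic reticulum, through which plasma proteins leave the cell, 15 were higher and 0 lower in limma, with hspa5 at 135 TPM against 54.7 TPM. In untreated larvae 16 of the 23 fell from 96 to 132 hpf, and against lc_12 h 1 was higher and 6 lower at re_24 h. Their summed TPM was 1955 to 2133 at ctrl_96 hpf, 1679 to 1746 at re_24 h and 1129 to 1211 at ctrl_132 hpf. Of 28 liver cell genes 5 were higher and 3 lower, and the summed TPM of the 28 was 12093 to 13231 at re_24 h and 10860 to 11034 at ctrl_132 hpf. Of 18 macrophage and neutrophil genes 6 were higher and 1 lower, and their sum was 350 to 416 TPM against 239 to 253 TPM. The part of these cells in the result was not tested.

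Survivors of 24 h of cold carried the highest levels of the series. The group mean was highest in er_ab for 18 of the 41 genes and in er_nor for 15. The summed TPM of the 41 was 5599, 5433 and 5666 in er_ab, 4781, 4821 and 4879 in er_nor and 2527, 2754 and 2129 at lc_24 h, without overlap. Against lc_24 h 30 genes were higher and 1 lower in er_nor, beside 25.9% and 8.61% of all genes, and 26 were higher and 1 lower in er_ab, beside 27.3% and 10.7%. The medians of the 41 were 1.12 and 0.78, and those of all genes 0.24 and 0.21. Under median-of-ratios scaling 28 and 21 were higher. The lower gene was hamp in both. Of 28 liver cell genes 22 were higher and 1 lower in er_nor (median 0.91) and 15 and 1 in er_ab (median 0.67), with summed TPM of 6917 to 9294 at lc_24 h, 12865 to 12986 in er_nor and 10255 to 10770 in er_ab. Of 18 macrophage and neutrophil genes 14 were higher in er_nor (median 1.26) and 15 were higher and 1 lower in er_ab (median 1.47), and their part and that of the liver cell genes in these counts was not tested. The 2 comparisons share the lc_24 h samples and span 24 h of age, which cannot be told apart from the rewarming. Per the paper, it was hard to tell at the end of the cold which larvae would survive. The lc_24 h samples may therefore hold larvae that would have died at 28 °C, and the survivor groups hold only those that lived. This selection cannot be told apart from the rewarming either.

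The abnormal survivors differed from the normal ones in both directions. Of the 41 genes 11 were higher and 4 lower in er_ab, beside 5.58% and 4.74% of all genes, while the median of the 41 was -0.14 against -0.02 for all genes, and 22 of the 41 estimates were below 0. Higher were c4b, c6, c7a, c7b, the 3 fibrinogen chains, hamp, saa, lect2l and agt. Lower were masp2, a2ml, itih3a and ttr. Leaving out any 1 sample gave 11 or 12 higher and 4 lower, and median-of-ratios scaling 12 higher and 4 lower.

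In the complement cascade, c4b had 58.9, 63.0 and 60.9 TPM in er_ab and 24.7, 24.2 and 28.1 TPM in er_nor (1.22, SE 0.18, adjusted p = 4.6e-07). The c7b values were 71.9, 54.8 and 56.8 TPM against 12.1, 6.98 and 13.1 TPM (2.44, SE 0.44, adjusted p = 2.3e-05), and those of c7a 42.1, 41.1 and 39.3 TPM against 15.9, 15.7 and 16.8 TPM (1.29, SE 0.11, adjusted p = 3.6e-12). The groups lay wholly apart in all 3 genes, and c6 was higher by 1.14. The later pore genes had negative estimates that were not called, with c8a at -0.40, c8b at -0.31, c8g at -0.30 and c9 at -0.41. The protease masp2 went down, with 5.60, 4.60 and 3.97 TPM against 9.13, 8.54 and 8.49 TPM (-0.77, SE 0.18, adjusted p = 0.00053), again without overlap. The C3 gene c3a.1, at 249 against 167 TPM, was just under the fold asked for a call (0.57).

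In coagulation, fga had 516, 470 and 581 TPM in er_ab and 234, 245 and 233 TPM in er_nor (1.13, SE 0.11, adjusted p = 5.3e-11), and fgb 625, 560 and 688 TPM against 297, 299 and 297 TPM (1.06, SE 0.12, adjusted p = 1.4e-09). With fgg, higher by 1.04, all 3 chains stood at more than the level of any other group in every er_ab sample. Prothrombin (58.8 against 71.6 TPM), plasminogen (116 against 95.7 TPM) and antithrombin (45.8 against 58.3 TPM) were not called. The summed TPM of the 6 coagulation genes was 1729, 1596 and 1871 in er_ab and 919, 962 and 933 in er_nor.

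Among the acute phase and iron genes, saa had 40.9, 33.3 and 18.6 TPM in er_ab and 3.39, 4.72 and 5.89 TPM in er_nor (2.45, SE 0.45, adjusted p = 3e-05). Hepcidin had 43.8, 41.2 and 64.8 TPM against 29.7, 13.4 and 23.8 TPM (1.17, SE 0.21, adjusted p = 1.8e-05). In both genes every er_ab sample exceeded every er_nor sample, though the 3 er_ab values of saa spread widely. The level of lect2l was 333 against 181 TPM (0.88), and hp, cp and tfa were not called.

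In the last role agt stood alone above, with 258, 235 and 243 TPM in er_ab and 93.6, 96.6 and 90.1 TPM in er_nor (1.38, SE 0.12, adjusted p = 2e-12). The lower genes were itih3a, with 10.8, 12.9 and 9.60 TPM against 15.9, 23.3 and 22.4 TPM (-0.82, SE 0.19, adjusted p = 0.00065), a2ml, with 34.9, 35.5 and 28.6 TPM against 58.7, 62.0 and 51.5 TPM (-0.78, SE 0.10, adjusted p = 3e-08), and ttr, with 64.1, 59.6 and 51.6 TPM against 97.3, 94.6 and 90.1 TPM (-0.68, SE 0.12, adjusted p = 2.2e-05). The groups did not overlap in these 4 genes. The other 4 of the role (serpina1, serpina1l, ambp and itih2) had estimates from -0.40 to -0.31 and were not called. In mammals fibrinogen, serum amyloid A and hepcidin are positive acute phase proteins and transthyretin is a negative one. Other plasma protein genes of the list were not called here, among them c9, hp, cp, tfa, serpina1 and serpina1l. Whether the difference is an acute phase response was not tested.

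**Figure D4:**
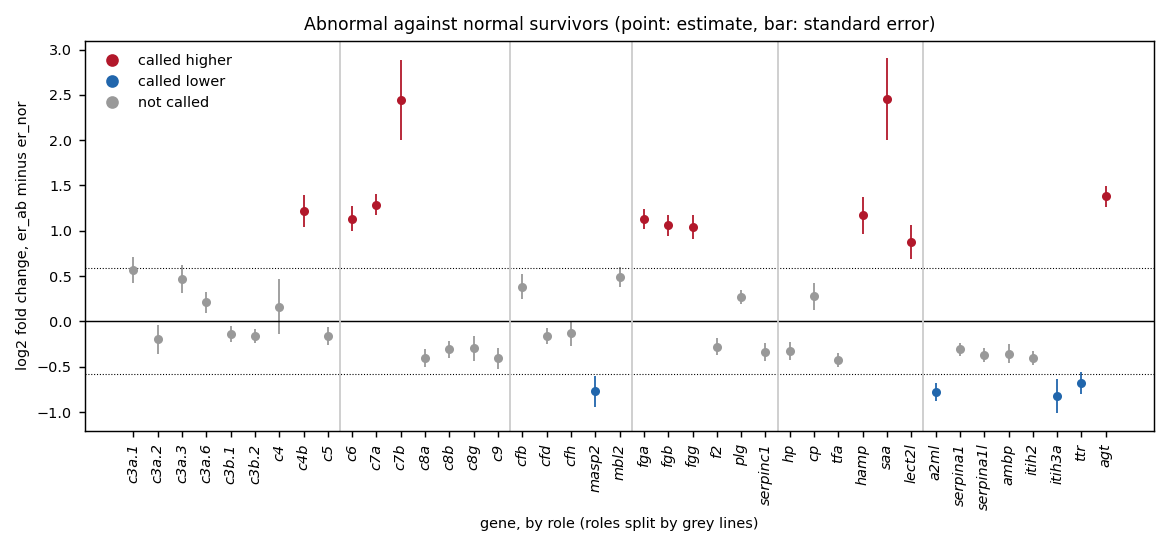
Log2 fold change of er_ab minus er_nor for the 41 genes, ordered by role, with standard errors (bars). Dotted lines mark a fold of 1.5. The 11 red genes lie between 0.88 and 2.45, the 4 blue ones between -0.82 and -0.68, and most grey ones lie just under 0.

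The genes higher at re_2 h against lc_12 h and those higher in er_ab against er_nor, comparisons with no sample in common, shared 7 members: c6, c7b, fga, fgb, fgg, lect2l and agt. These were 87.5% of the 8 at re_2 h and 63.6% of the 11 in er_ab. Over all genes tested the 2 comparisons shared 587 genes, 16.4% of those higher at re_2 h and 41.5% of those higher in er_ab. The er_ab comparison added c4b, c7a, hamp and saa, of which c4b and c7a were also higher at re_6 h against lc_12 h.

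**Figure D5:**
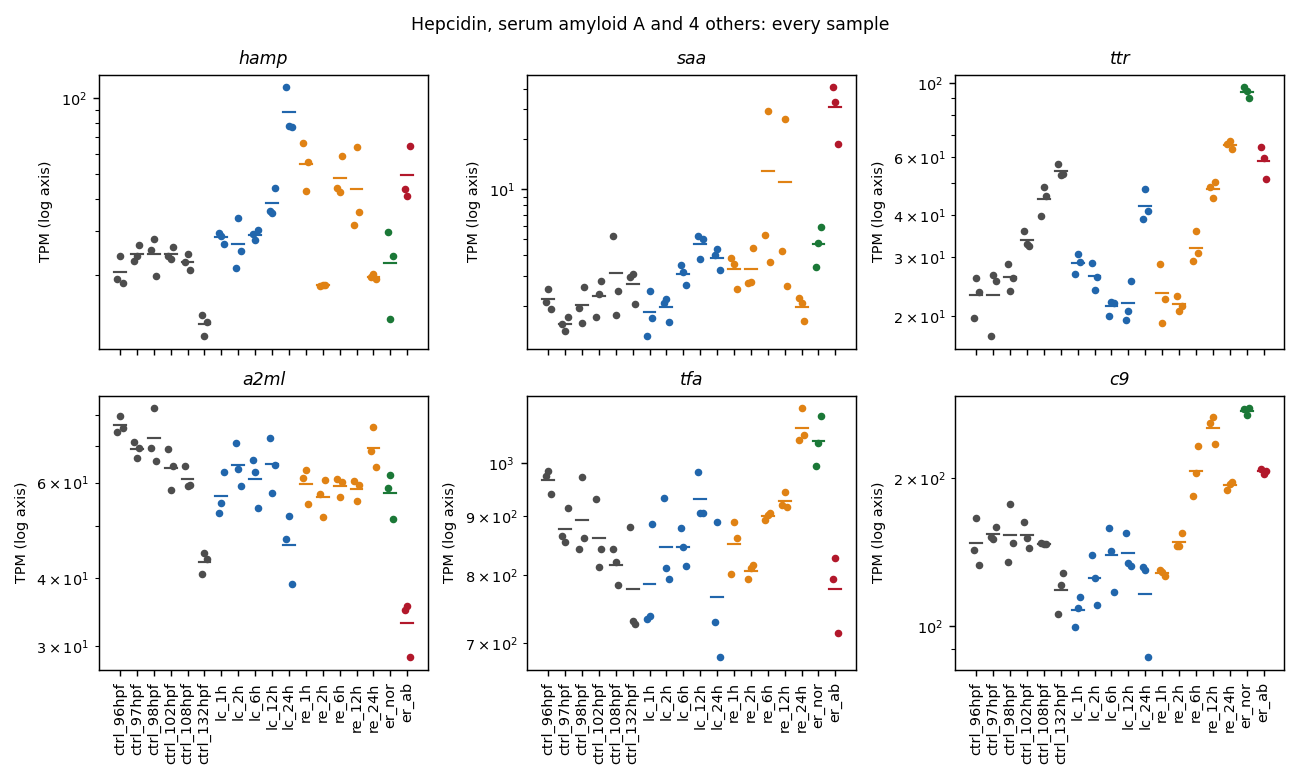
TPM (log axis) of hamp, saa, ttr, a2ml, tfa and c9 in each of the 54 samples (points) with group means (lines). The hamp panel climbs through the cold to 77.0 to 111 TPM at lc_24 h, saa stands highest in er_ab (18.6 to 40.9 TPM) with single high samples at re_6 h and re_12 h, ttr and a2ml are lower in er_ab than in er_nor, and tfa keeps within 680 to 1114 TPM in the samples of the cold, recovery and survivor groups.

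Of the 26 acute phase signaling genes 15 were higher and 1 lower in er_ab, led by cebpb, il6st, jak1 and socs3b. The transcription factor cebpb had 180, 121 and 127 TPM in er_ab against 21.7, 25.0 and 22.8 TPM in er_nor (2.55), and il6st, the shared receptor subunit of the interleukin 6 family, had 53.4 against 22.1 TPM (1.23). The kinase jak1 was higher by 0.95, socs3b by 1.91 and stat3 by 1.14. The pentraxin genes did not follow, with crp3 at 146 TPM in er_ab and 147 TPM in er_nor and crp2 at 177 and 214 TPM.

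Of 25 other coagulation genes 6 were higher and 2 lower, among them f5, coagulation factor V, higher at 28.1 against 15.8 TPM (0.79). Of 15 other complement genes 1 was higher (clu, 267 against 165 TPM) and 3 were lower (cd59, vtna and cfhl1). Of 28 liver cell genes 4 were higher and 6 lower, with a sum of 10255 to 10770 TPM in er_ab and 12865 to 12986 TPM in er_nor, and fabp10a stood at 816 and 832 TPM. Of 18 macrophage and neutrophil genes 3 were higher (mmp9, marco and cybb) and 1 lower (lyz), with a sum of 388 to 552 TPM against 355 to 419 TPM. The part of these cells in the difference was not tested.

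Where a symbol had further IDs, some of these differed from the row used. The second row of c7b had 32.5 TPM on average in er_ab and 2.68 TPM in er_nor, and that of fgg 451 and 168 TPM, so both went the way of the rows used. The second row of cfd fell from 52.6 TPM at ctrl_96 hpf to 20.4 TPM at lc_24 h, where the row used had 119 and 162 TPM and was not called. How reads were shared between such near copies is uncertain, and with TPM summed over the IDs of each symbol the count in each comparison stayed within 1.5 times. The row spelled hpx a, left out of the genes described, had 3.64 TPM on average in er_ab, 0.585 TPM in er_nor and 5.40 TPM at ctrl_132 hpf.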

How the data were processed

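RNA of whole larvae was sequenced in 54 samples and the deposited table holds TPM per gene. Per the study's methods, the authors mapped reads to the zebrafish cDNA of Ensembl release 101 with Salmon 0.13.1, with corrections for sequence, GC and position bias, and summarised genes with tximport. They called differential genes from counts, which are not used here. TPM is a share of each library, and the column sums ran from 998493 to 999530. Because no depth is given, no counting error can be stated.

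Here log2(TPM + 1) was fitted in limma 3.58.1 (R 4.3.3) with 18 group means over all 54 samples (36 residual degrees of freedom) and a trended prior. A gene was tested when all 3 samples of some group reached 1 TPM. Calls needed a fold of 1.5 and an adjusted p of 0.05 over all 25387 genes. The procedure was tested on simulated data. The genes and lists described were chosen with earlier results of these data known. Values in every sample are given for up to 2 called genes a role with the largest change and for those against their role, and companion lists by up to 4 genes of smallest p, others where a count was 5 or fewer. Some further genes were named after their values were seen. Of the 41 IDs, 38 were in the gene name table and 26 had the same symbol there. Alternatives were a pseudocount of 0.1, no filter, a filter at 5 TPM, median-of-ratios scaling, the replicate number as a block, a fit of the 2 groups alone, sums over IDs, controls of the same age and each sample left out.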

Additional observations from a re-analysis of the deposited data

How the results depend on the processing

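Of the counts in the 23 comparisons, these moved by more than 1.5 times or to or from 0. With a pseudocount of 0.1, lower genes went from 7 to 11 at ctrl_132 hpf, from 0 to 2 at lc_1 h against ctrl_96 hpf, from 2 to 4 at lc_12 h against ctrl_108 hpf and from 1 to 2 at re_24 h against lc_12 h. A filter at 5 TPM left 40 of the genes and took the lower genes at re_1 h from 2 to 1. Median-of-ratios scaling took lower genes from 7 to 3 at ctrl_132 hpf, from 8 to 1 at lc_24 h and from 1 to 2 for er_ab against lc_24 h. With only the 2 groups compared, higher genes at lc_12 h against ctrl_96 hpf went from 1 to 2 and lower ones at re_24 h against lc_12 h from 1 to 2. With controls of the same age, lower genes went from 0 to 1 at lc_1 h, from 0 to 2 at lc_6 h and from 0 to 2 at lc_12 h. The cause of these moves was not tested.

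With 1 sample left out, lower genes ran from 0 to 2 at lc_1 h against either control, from 2 to 4 at lc_12 h against ctrl_108 hpf, from 1 to 2 at re_1 h and from 6 to 14 at lc_24 h. Higher genes ran from 0 to 1 at ctrl_102 hpf, from 2 to 4 at ctrl_132 hpf and from 2 to 4 at re_1 h. No called gene changed sign under any alternative run. Replicates with the same number did not deviate together (median correlation -0.0016, range -0.13 to 0.13, in 0 of the 23 comparisons above 0.1 in every pair). Such correlations cannot show whether samples of the same number shared a clutch. With the replicate block the counts stayed within 1.5 times, as in the 19 at re_24 h against ctrl_132 hpf and the 11 and 4 in er_ab.

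The depth behind each value is unknown, which limits what can be said of genes of a few TPM such as c4, c7b and saa.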
